A study of Zea mays with 14 samples.

Results

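Messenger RNA of root hairs was compared, gene by gene, with that of the aerial part of seedlings in the maize inbred line B73. The comparison takes the 2 B73 root hair libraries and the 2 B73 aerial seedling libraries, 4 of the 14 libraries in the series, across all 39305 gene IDs that were counted. The plants compared were B73 with no mutation or transgene in their labels, 3 days old and germinated in moist paper. Liquid nitrogen froze the seedlings before the hairs were scraped off, and shoots were collected without scraping, so the way of collection and the tissue cannot be told apart. The roots left after scraping gave 2 further B73 libraries, whose levels are printed beside some results together with those of 2 libraries from wild type W22, another inbred line, whose root hairs were taken at the same age. The sources used here do not say whether the 2 libraries of a group came from separate plants or pools, and the spread that p-values measure may therefore be technical.

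Root hairs are tubular outgrowths of single epidermal cells. They grow only at the tip, where calcium, reactive oxygen, small GTPases and actin steer vesicles of new membrane and wall, and they take up water and ions from the surroundings. They do not divide. The aerial part of a seedling holds many cell types, among them dividing cells of the shoot apex, a cuticle-covered epidermis, vessels, and leaf cells that build chloroplasts in the light.

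The root hair libraries held 25845354 and 27788359 counts and the aerial seedling libraries 20731338 and 17774420. A count was found for 26715 and 26268 IDs in root hair and for 28817 and 28632 in aerial seedling, and 7114 IDs had none in the 4 libraries. A floor of 3 counts equalled 0.0767 to 0.172 CPM (reads of a gene per library size, after scaling for composition) over the B73 libraries. Across genes, which share these libraries and are not replicates, Pearson's r of log2 CPM was 0.987 between the root hair libraries, 0.977 between the aerial seedling libraries and 0.467 to 0.487 between the tissues. Below, a pair of CPM values gives the 2 libraries of a group with replicate 1 first.

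The labels were checked against markers. The 12 tested genes of photosystems and antennae were all lower in root hair. Their summed CPM was 10.9 and 17.5 in root hair and 2484 and 2216 in aerial seedling. These 12 are part of a list of 23 tested photosynthesis genes, 20 of them lower and 2 higher. The part was picked after values had been seen. Rubisco and C4 cycle genes had 9 of 13 lower and 2 higher. Their summed CPM was larger in root hair, at 4280 and 4418 against 3021 and 3226 in aerial seedling. Most of the root hair sum was that of pck2, at 3167 and 3223 CPM against 234 and 169 in aerial seedling. Without pck2 the sum was smaller in root hair. rth3, a COBRA-like gene whose loss leaves maize without normal hairs, was at 418 and 337 CPM in root hair and 27.9 and 23.7 in aerial seedling. RCP1, a root cap protein gene, had no count in aerial seedling and 24.8 and 25.1 CPM in root hair, against 83.3 and 78.9 in root. RCP2, the other root cap gene with a name, was at 66 and 63.9 CPM in root hair, 41.7 and 36.9 in root and 0.271 and 0.369 in aerial seedling, so that the 2 differed in which of root hair and root held more. The vessel wall genes cesa10 and CesA12, cellulose synthases of secondary walls, were at 27.1 and 31.3 (cesa10) and 0.904 and 0.687 (CesA12) CPM in root hair and at 142 and 125 (cesa10) and 56.8 and 33.4 (CesA12) in aerial seedling, while cesa11 stayed near 0 in both tissues. The part of root cap, vessel or dividing cells in the results was not tested. In bulk samples, fewer cells of a type and less RNA per cell cannot be told apart.

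After a filter on low counts, 25551 of the 39305 IDs were tested with edgeR's quasi-likelihood test. A gene was called at a Benjamini-Hochberg adjusted p under 0.05, and "rose", "fell", "higher" and "lower" are used of such calls, always for root hair relative to aerial seedling. Of the genes tested, 8735 (34.2%) were higher in root hair, 11502 (45%) were lower and 5314 were not called, so that 79.2% differed. A change of 2-fold or more was seen for 7301 of the higher (28.6% of those tested) and 10667 of the lower genes (41.7%). The lower side reached further: 5565 genes were lower by 16-fold or more and 1267 higher, and by a larger margin of 8 on the log2 scale or more, 1486 were lower against 297 higher. With 20 counts or more over the other tissue, 1133 genes had no count in either root hair library and 138 had none in either aerial seedling library. The median log2 fold change was -0.40, and the quartiles were -3.41 and 1.27. Among the 2356 tested genes with a name, 750 were higher and 1167 lower.

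**Figure D1:**
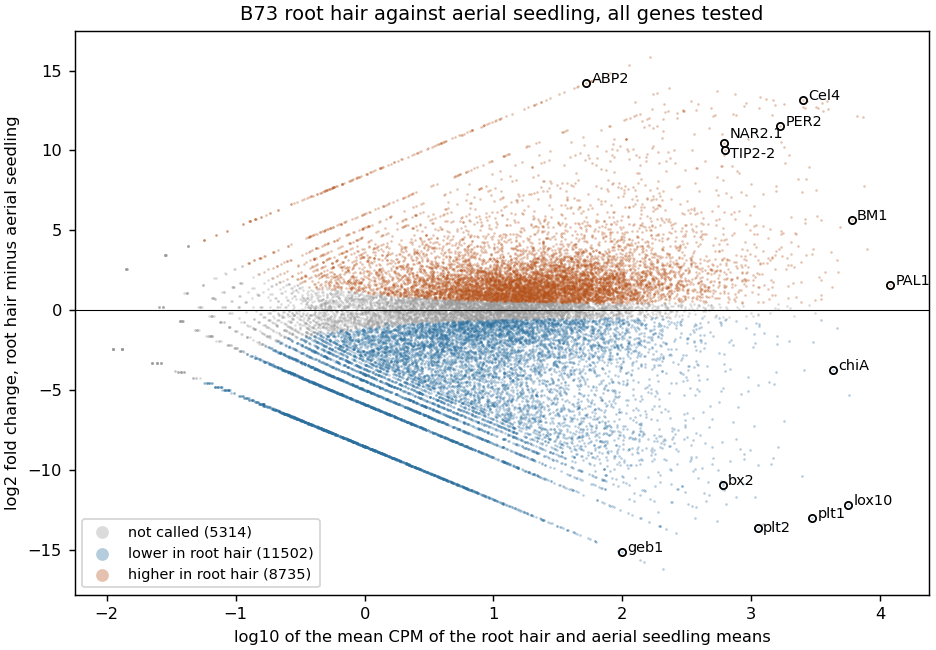
Each point is a gene tested; the x axis gives the log10 of the average of the root hair and aerial seedling mean CPM, and the y axis the fitted log2 fold change of root hair over aerial seedling. Called genes are orange (8735 higher) and blue (11502 lower), the diagonal streaks are genes with 0 or few counts in one tissue, circles with names mark some genes of the text, and 48 genes with no count in either tissue are not drawn.

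The named genes with the largest rises, among those with a mean of at least 20 CPM in root hair, were cellulase, peroxidase, nutrient and water uptake, actin and hormone synthesis genes among others. In all 12 of them, which were chosen by this change, both root hair libraries lay above both aerial seedling libraries. The same held for 9912 of the 25551 genes tested. Cel4, a cellulase, was at 4716 and 5407 CPM in the root hair libraries and 0.587 and 0.527 in the aerial seedling libraries, a log2 fold change of 13.13 ± 0.38 (SE; edgeR adjusted p = 1.18e-25). Cel9, of the same family, had 1 count in aerial seedling and 22.5 and 26.1 CPM in root hair, a ratio of 999 (95% interval 179 to 39508, for counting error only). Both cellulases were low in root without hairs, at 31.9 and 25.2 CPM for Cel4 and 0.199 and 0.153 for Cel9.

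PER2, a class III peroxidase, was at 3364 and 3351 CPM in root hair against 0.903 and 1.42 in aerial seedling, a log2 fold change of 11.51 ± 0.35. In W22 root hair PER2 reached 29663 and 31254 CPM. ABP2, an actin-depolymerizing factor, had no count in aerial seedling and 105 and 105 CPM in root hair, at least 1439-fold higher when the floor of 3 counts is taken over the group. IPT4, an isopentenyltransferase of cytokinin synthesis, likewise had no count there and 39.1 and 43.1 CPM in root hair, at least 564-fold higher. Neither ABP2 nor IPT4 passed 1 CPM in root without hairs, where they stood at 0.498 and 0.716 (ABP2) and 0.249 and 0.333 (IPT4) CPM.

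NAR2.1, the partner protein that nitrate transporters of the NRT2 family need, was at 1079 and 1386 CPM in root hair and 0.858 and 0.843 in aerial seedling, a log2 fold change of 10.49 ± 0.35. pht9, a phosphate transporter, had 2 counts in aerial seedling and 187 and 228 CPM in root hair, a ratio of 4259 (95% interval 1179 to 35175). The tonoplast aquaporin genes TIP2-2 and por2, also known as TIP2-3, were at 1072 and 1429.6 (TIP2-2) and 143 and 187 (por2) CPM in root hair and at 1.26 and 1.11 (TIP2-2) and 0.226 and 0.158 (por2) in aerial seedling. Root without hairs held these aquaporins at levels near those of hair, 878 and 648 CPM for TIP2-2 and 177 and 130.1 for por2, whereas NAR2.1 stood at 57.1 and 42.1 there.

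RCP1 was at least 342-fold and CK2 (GRMZM2G347047) at least 285-fold higher in root hair than in aerial seedling, where neither had a count. dhs2 was at 286 and 259.5 CPM in B73 root hair and 0.271 and 0.738 in aerial seedling, a log2 fold change of 9.11 ± 0.36. The W22 root hair libraries held dhs2 at 1.27 and 0.993 CPM only, near the aerial seedling level of B73. Among IDs with no name the largest rises were those of GRMZM2G028731, at 335 and 322 CPM in root hair and at least 4498-fold higher, and GRMZM2G006112, at 208 and 244 CPM and at least 3096-fold higher, neither with a count in aerial seedling.

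At the other end stood lipid transfer, glucanase, auxin carrier and shoot transcription factor genes. In all 12 of the largest falls, chosen in the same way, both root hair libraries lay below both aerial seedling libraries. This held for 12604 of the 25551 genes tested. Of the 12 falls, 5 had no count in root hair. plt1 and plt2, which encode lipid transfer proteins, were at 6004 and 5866 (plt1) and 1973 and 2509 (plt2) CPM in aerial seedling and at 0.960 and 0.516 (plt1) and 0.113 and 0.229 (plt2) in root hair, log2 fold changes of -12.96 ± 0.46 and -13.63 ± 0.52. geb1, a glucan endo-1,3-beta-glucosidase, had no count in root hair and 174 and 223 CPM in aerial seedling, at least 2303-fold lower in hair. PIN10a, an auxin efflux carrier, and gar2 had none either, at least 984-fold and 1456-fold lower. The same was true of the CONSTANS-like gene COL8, at 52.2 and 44.1 CPM in aerial seedling and at least 568-fold lower, and of TCP7, a TCP factor of organ growth, at 34.1 and 29.7 CPM and at least 376-fold lower.

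kin1 and pcr1 were at 2162 and 2769 (kin1) and 3634 and 3230.1 (pcr1) CPM in aerial seedling against 0.169 and 0.286 (kin1) and 0.282 and 0.401 (pcr1) in root hair. For 3 further genes root hair held 1 or 2 counts. The ratio of aerial seedling to root hair was 6724 for ERD3 (95% interval 1861 to 55531), 6713 for msh1 (interval 1205 to 265195) and 5522 for Natterin-4 (GRMZM2G134264), with an interval of 991 to 218132. The largest falls among unnamed IDs were those of GRMZM2G345700 and GRMZM2G374302, at 375 and 445 (GRMZM2G345700) and 279 and 313 (GRMZM2G374302) CPM in aerial seedling and at least 4775-fold and 3450.4-fold lower in root hair, where neither had a count.

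**Figure D2:**
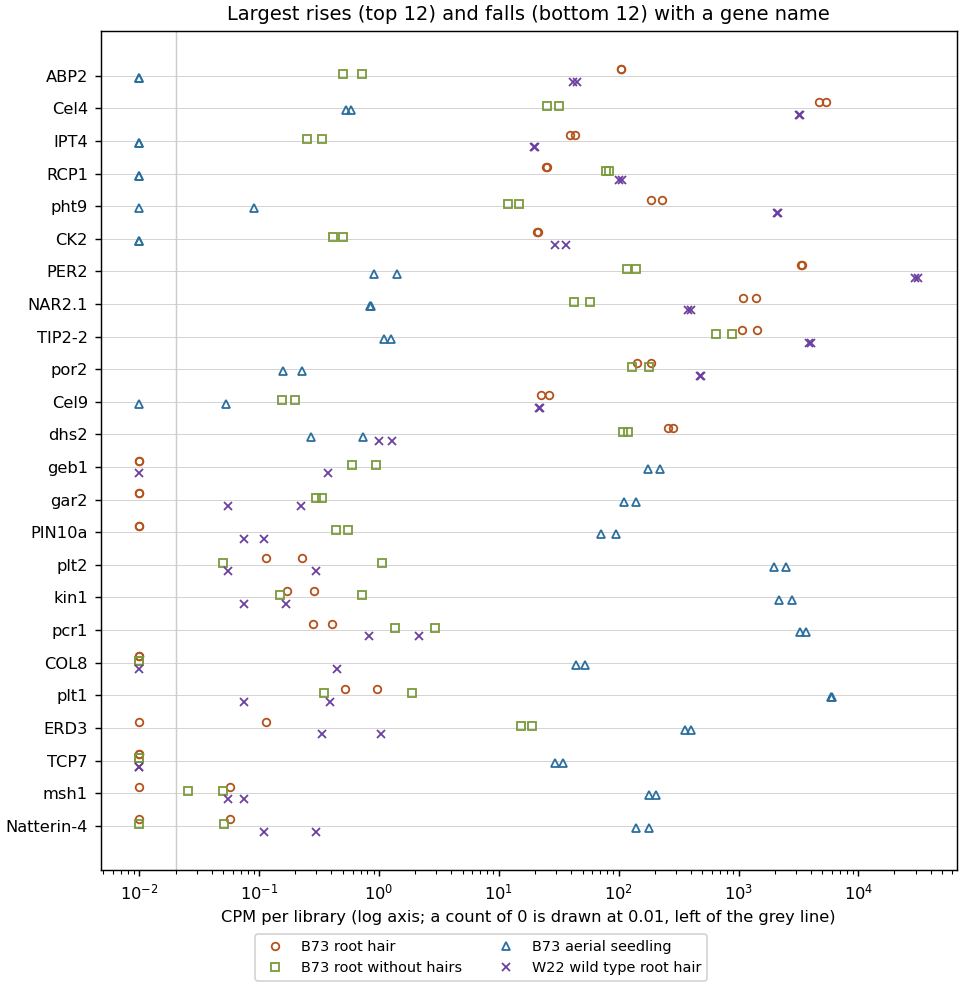
CPM on a log axis in each of 8 libraries for the 12 largest rises (top) and 12 largest falls (bottom) among named genes; symbols mark B73 root hair, B73 root without hairs, B73 aerial seedling and W22 wild type root hair, and a count of 0 is drawn at 0.01. The genes were chosen by their change between B73 root hair and aerial seedling, whose values do not overlap for any gene shown. TIP2-2 and por2 lie near their B73 hair levels in root without hairs, and RCP1 lies higher there than in B73 hair. In W22 root hair dhs2 lies near the aerial seedling level.

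The named genes with the most counts differed between the tissues as well. In root hair these were PAL1 (GRMZM2G074604), exg1, BM1, glu1, BURP3, 4CL, gst1 and Px11. PAL1, a phenylalanine ammonia-lyase, was among the top 8 in both tissues, at 17533 and 18398 CPM in root hair and 6743 and 5246 in aerial seedling, a log2 fold change of 1.58 ± 0.23. exg1, an exoglucanase, was at 13097 and 16425 CPM in root hair and 1073 and 999 in aerial seedling, and BURP3, a BURP domain protein, at 5907 and 6642 against 37.8 and 28.8. gst1, a glutathione transferase, was at 4975 and 5921 CPM in root hair and 1103 and 1476 in aerial seedling, a log2 fold change of 2.08 ± 0.23.

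In aerial seedling the top 8 were lox10, lox1, chiA, grp1, PAL1, plt1, AGA1 and MUB3. lox10, a lipoxygenase that feeds the synthesis of leaf volatiles, was at 12827 and 9662 CPM in aerial seedling and 2.60 and 2.23 in root hair, and lox1 at 11806 and 10626 against 260.1 and 302. The chitinase gene chiA stood at 7513 and 8466 CPM in aerial seedling and 557 and 651 in root hair, the glycine-rich protein gene grp1 at 6849 and 5787 against 2499 and 3341. AGA1, an alkaline alpha-galactosidase, was at 5719.8 and 3914 CPM in aerial seedling and 1273 and 1175 in root hair, and MUB3, which the gene table also names ubiquitin, at 3582 and 4725 against 2645 and 2922. Log2 fold changes were -12.18 ± 0.36, -5.32 ± 0.26, -3.73 ± 0.25, -1.11 ± 0.22, -1.98 ± 0.23 and -0.58 ± 0.22 in that order. The call of MUB3 was lost without root hair replicate 1 (edgeR adjusted p = 0.14), without root hair replicate 2 (0.0559) and without aerial seedling replicate 2 (0.156).

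Lists of named genes, each one a pathway or family, were then counted against the shares of all genes tested, 34.2% higher and 45% lower. The lists hold only the members that the gene table names, each ID counted, and reads of close copies within a family may be split between them. Of the 2356 tested genes with a name, 750 were higher and 1167 lower. The named genes thus had a larger share lower, and a smaller share higher, than all genes tested. Autophagy, calcium signalling, sulfate and nitrate genes had most of their tested members higher. Core histones, expansins, pathogenesis-related proteins, antennae and ribosomal proteins had most or all of them lower. Aquaporins, cytokinin genes, tubulins and heat shock genes lay near the shares of all genes tested.

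**Figure D3:**
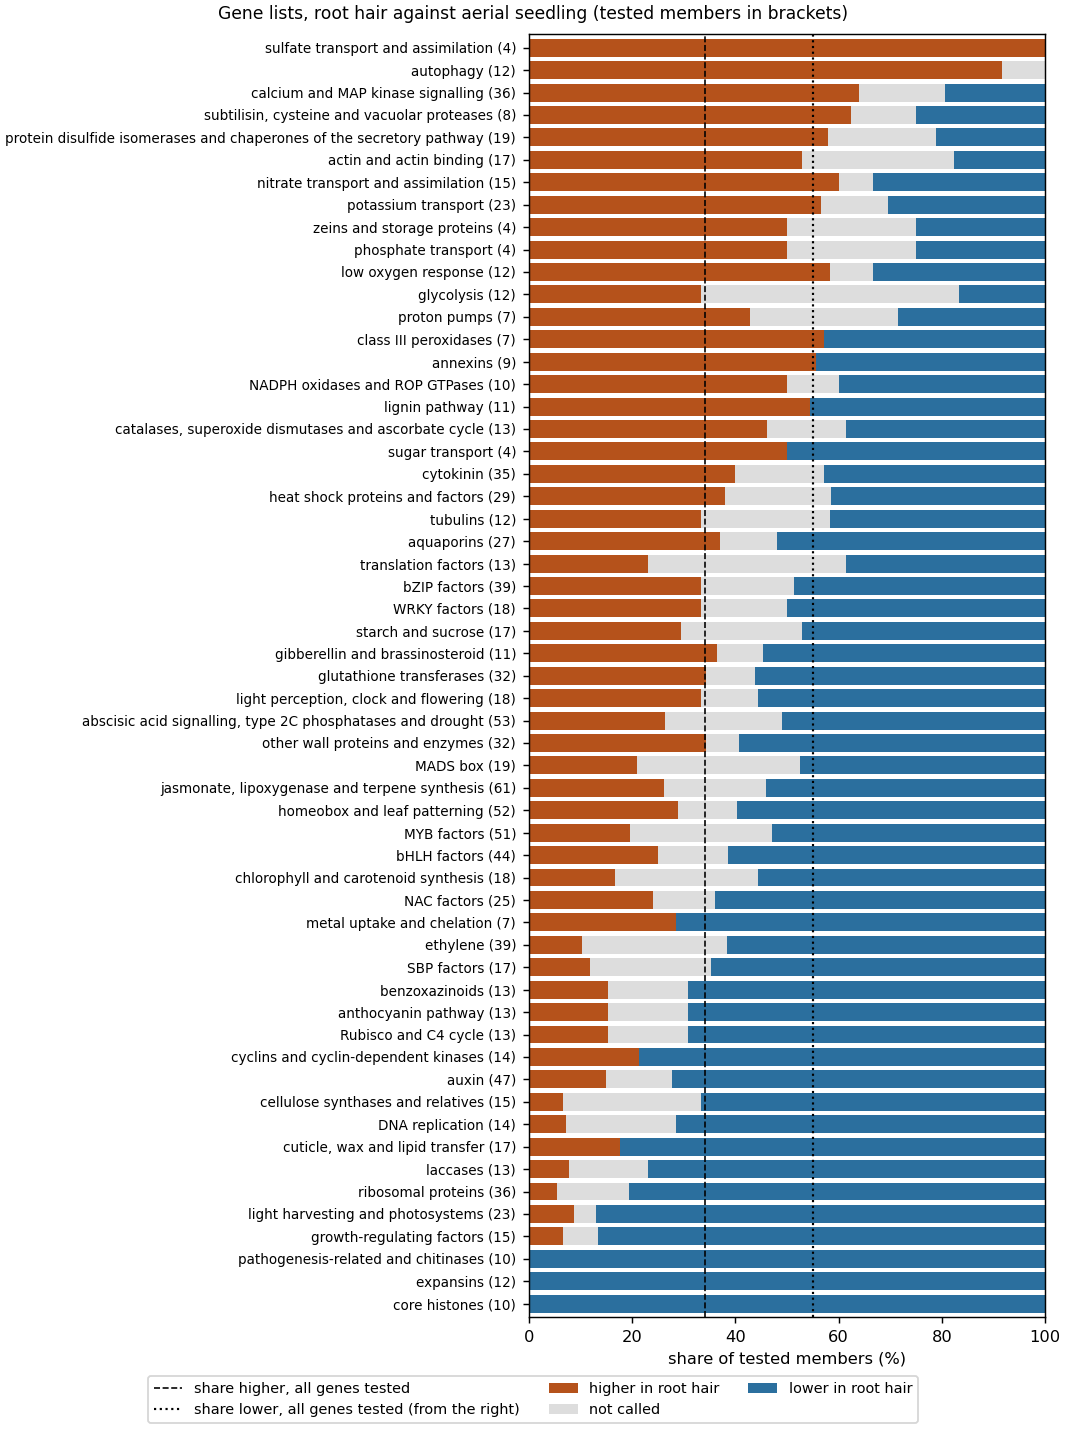
Bars give, for each list with at least 4 tested members, the share of those members higher in root hair (orange), not called (grey) and lower (blue), with the number tested in brackets; the dashed line marks the 34.2% higher and the dotted line, read from the right, the 45% lower among all genes tested. Autophagy stands at the top with 11 of 12 members higher beside the 4 sulfate genes, and core histones, expansins and pathogenesis-related genes at the bottom with every tested member lower.

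Among uptake genes, nitrogen showed a contrast between members. Of 15 tested genes of nitrate transport and assimilation, 9 were higher and 5 lower, and their summed CPM was 7727 and 9375 in root hair and 3437 and 2892 in aerial seedling. Glutamine synthetases, which fix ammonium into glutamine, had 5 of 7 IDs higher and 2 lower: GLN6 was at 1956 and 2343 CPM in root hair and 81.1 and 79 in aerial seedling, while gln2 was at 1.07 and 2.06 against 472 and 374. The log2 fold changes were 4.75 ± 0.25 for GLN6 and -8.07 ± 0.33 for gln2. The gene gln1 holds an ID called higher (1.80 ± 0.24) and another called lower (-3.45 ± 0.44). fgs1, a ferredoxin-dependent glutamate synthase, was also higher, at 301 and 297 against 57.9 and 30.0 CPM. NAR2.2, the second NAR2 gene, went the other way from NAR2.1, with 0.339 and 1.09 CPM in root hair and 10.6 and 7.43 in aerial seedling.

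All 4 tested sulfate genes were higher. ST1, a sulfate transporter, was at 61.3 and 77.5 CPM in root hair and 12.9 and 10.2 in aerial seedling, and the serine acetyltransferase genes sat2, sat1 and sat3, whose product is used to make cysteine, had log2 fold changes of 2.70 ± 0.25, 1.79 ± 0.26 and 0.58 ± 0.22. The call of sat3 was lost without root hair replicate 1 (edgeR adjusted p = 0.0592) and without root hair replicate 2 (0.102). Potassium genes had 13 of 23 higher and 7 lower. HAK24, a potassium transporter of the HAK family, was at 138 and 114 CPM in root hair and 2.08 and 3.21 in aerial seedling, a log2 fold change of 5.58 ± 0.30, and HAK1 at 905 and 926 against 394 and 272. HAK8 was the reverse, at 0.339 and 0.687 CPM in root hair and 58.4 and 51.3 in aerial seedling.

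Of the 11 named phosphate genes 4 could be tested, and beside pht9 the gene pht2 was higher, at 108 and 148 against 32.9 and 25.2 CPM. pht1 was the member that was lower, at 8.58 and 12.6 CPM in root hair and 136 and 119.8 in aerial seedling, and a second one was called lower without aerial seedling replicate 2 and under upper-quartile scaling. Among metal genes 2 of 7 were higher and 5 lower, with a median log2 fold change of -3.56. ys1, which takes up iron bound to phytosiderophores, stood at 132 and 131 CPM in root hair and 12.6 and 11.7 in aerial seedling, whereas DMAS1, an enzyme that makes those chelators, stood at 6.89 and 11.2 against 113 and 105.

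Water and solute channels were divided by subfamily and by gene. Of 27 tested aquaporins, 10 were higher (37.0%) and 14 lower (51.9%), near the 34.2% and 45% of all genes tested. The plasma membrane subfamily had 7 of 9 members lower and 1 higher, with summed CPM of 5973 and 7523 in root hair and 8748 and 7746 in aerial seedling, and the tonoplast subfamily 4 higher and 4 lower. The silicon channels had opposite signs: Lsi1, the influx channel of roots, was at 377 and 524 CPM in root hair and 11.4 and 5.90 in aerial seedling, and Lsi6, which serves unloading in shoots, at 0 and 0.0573 against 26.2 and 21.2. Lsi6 had 1 count in root hair, a ratio of aerial seedling to root hair of 840.2 (95% interval 150.5 to 33221).

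For sugars, the monosaccharide transporter MST1 was higher, at 849 and 925 against 222 and 218 CPM, and sut1, the sucrose transporter of phloem loading, was lower, at 0.452 and 0.630 against 258 and 194 CPM with a log2 fold change of -8.69 ± 0.35. Invertases and sucrose synthases followed no single direction. IVR1, a vacuolar invertase, rose from 24.7 and 17.6 CPM in aerial seedling to 1329 and 1405 in root hair, a log2 fold change of 6.01 ± 0.27, whereas the cell wall invertase INCW2 was at 15.9 and 11.3 in aerial seedling with 1 count in root hair, and the sucrose synthase gene ss2, also known as sus1, was at 1615 and 1410.5 against 5.37 and 6.19. Of 17 starch and sucrose genes, 5 were higher and 8 lower, with 3 higher when root hair replicate 2 or aerial seedling replicate 2 was left out. Proton pumps had 3 of 7 higher, among them pma1, a plasma membrane pump gene, at 137 and 155 against 39.1 and 41.1 CPM, and 2 lower, among them vpp1, a vacuolar pyrophosphatase, at 4.35 and 4.30 against 207 and 208.

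**Figure D4:**
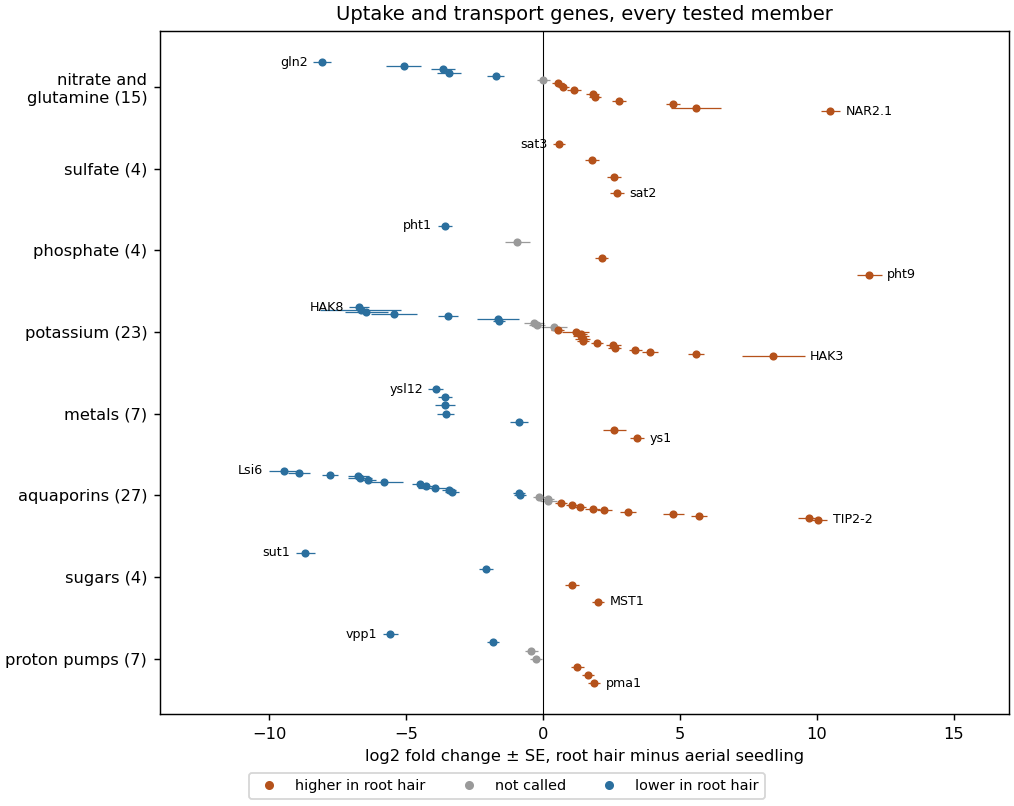
Points give the fitted log2 fold change of root hair over aerial seedling with its SE for every tested member of the uptake and transport lists, coloured by call; the number tested is in brackets and the most extreme member on each side is named. NAR2.1, pht9 and TIP2-2 lie beyond 9 on the log2 scale, and within nitrate, potassium, aquaporin and sugar genes members lie on both sides of 0.

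Most tested wall genes were lower, but summed CPM went different ways between the wall lists. Of 16 named expansins, which loosen walls in growing tissue, 12 could be tested, and all of these were lower: the 7 beta-expansins had summed CPM of 7.0 and 8.02 in root hair and 2476 and 2412 in aerial seedling, and the 5 alpha-expansins 87.7 and 102 against 655 and 597. With no filter on low counts, 2 beta-expansins that the filter had taken out were called higher, EXPB9 with 11 and EXPB1 with 8 counts over the root hair libraries and none in aerial seedling. Of 15 cellulose synthases and relatives, 1 was higher, CesA-8 at 910.1 and 831 against 257 and 244 CPM, and 10 were lower, CSLD1 the most, at 0.113 and 0.115 against 34.2 and 24.4 CPM. CSLD genes are known for tip growth in Arabidopsis and rice, and CSLD1 was the one member of that subfamily with a name here. Other wall proteins and enzymes had 11 of 32 higher, a share close to the background, and 19 lower, among them xet1, a xyloglucan endotransglycosylase, at 0.282 and 0.172 against 197 and 184 CPM, and prp2, a proline-rich protein, at 0.282 and 0.229 against 220.4 and 211. The summed CPM of these other wall genes was larger in root hair, at 22001 and 26815 against 11869 and 10210 in aerial seedling.

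The lignin pathway was divided among its members. Besides PAL1, the 4-coumarate ligase gene 4CL was higher, at 5249 and 5641 CPM in root hair and 546 and 411 in aerial seedling, and ccoaomt1, which methylates caffeoyl-CoA, at 2043 and 2422 against 578 and 607. BM1, a cinnamyl alcohol dehydrogenase of the last step before export, was at 10792 and 12827 CPM in root hair and 285 and 193 in aerial seedling, a log2 fold change of 5.62 ± 0.28 (edgeR adjusted p = 7.81e-20), while cad1, of the same enzyme name, was at 0.0565 and 0.172 against 38.4 and 42.8. In all 6 of 11 tested members were higher and 5 lower, among the latter ccr2, a cinnamoyl-CoA reductase, at 1.75 and 1.60 against 33.3 and 24.2 CPM. Laccases, which can couple the monomers in the wall, had 10 of 13 lower and 1 higher.

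Class III peroxidases, which also use these monomers, had 4 of 7 higher and 3 lower. Px11 was at 4571 and 5960.3 CPM in root hair and 18.8 and 16 in aerial seedling, a log2 fold change of 8.24 ± 0.31, and PER42 at 1.69 and 1.95 against 442 and 519, a log2 fold change of -8.04 ± 0.31. NADPH oxidases and ROP GTPases had 5 of 10 higher and 4 lower. Of the NADPH oxidases, which make the superoxide of tip growth, rbohB was at 176 and 155 CPM in root hair and 19.4 and 12.9 in aerial seedling and rbohC at 60.4 and 51.4 against 21.3 and 15.7, while rbohD was lower, at 16.4 and 14.6 against 126 and 85.9. Of the ROP GTPases, which place tip growth, rop9 was at 143 and 136 CPM in root hair and 18.8 and 29.4 in aerial seedling and rop2 at 209 and 178 against 42.7 and 61.2, while rop6 and rop3 were lower, with log2 fold changes of -3.68 ± 0.42 and -4.46 ± 0.62. Superoxide dismutases, catalases and ascorbate genes had 6 of 13 higher and 5 lower, apx2, an ascorbate peroxidase, at 980.4 and 1056 against 256 and 259.5 CPM.

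Calcium sensors and their kinases were among the groups with the most members higher. Of 36 tested genes of calcium and MAP kinase signalling, 23 were higher and 7 lower, with a median log2 fold change of 1.47 beside -0.40 over all genes tested. The calcium-dependent protein kinases had 7 of 9 IDs higher and 0 lower. Both tested IDs of the gene CPK39 were higher. CDPK2 was at 276 and 248 CPM in root hair and 4.92 and 10.2 in aerial seedling, a log2 fold change of 5.12 ± 0.29, and CPK21 at 536 and 456 against 23.5 and 40.6, one of 3.95 ± 0.26.

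The CBL sensors, calcineurin B-like proteins that act through CIPK kinases, had 8 of 9 IDs higher. Both tested IDs of the gene CBL2-1 were higher. CBL5 was at 93.9 and 92.5 CPM in root hair and 3.39 and 4.85 in aerial seedling, and CBL10 was the member that was lower, at 0.452 and 0.516 against 10.1 and 11.5. CIPK16 was lower too, at 0.395 and 0.286 against 11.1 and 7.53 CPM. Calmodulins had 2 of 6 higher and 2 lower. The calmodulin gene CaM1 stood at 2913 and 3255 CPM in root hair and 185 and 252 in aerial seedling, a log2 fold change of 3.82 ± 0.25, and copies of near-identical calmodulin genes may share its reads.

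Annexins, which bind membranes in the presence of calcium, were split 5 higher to 4 lower. Ann9 was at 1792 and 2271 CPM in root hair and 135 and 120.5 in aerial seedling, and Ann5 at 0.169 and 0.0573 against 168 and 132, log2 fold changes of 3.99 ± 0.25 and -10.30 ± 0.42. Actin and its partners had 9 of 17 higher and 3 lower (5 without aerial seedling replicate 1 and under upper-quartile scaling). All 3 actin-depolymerizing factors were higher, with ABP3 at 2514 and 2536 CPM in root hair and 267 and 310.2 in aerial seedling. Profilins had 2 of 6 IDs higher and 1 lower. The profilin genes PRO4 and prf5 (GRMZM5G877388), whose products bind actin monomers, were at 1909 and 2126 (PRO4) and 1984 and 2191 (prf5) CPM in root hair and at 159 and 296 (PRO4) and 195 and 336 (prf5) in aerial seedling. Tubulins were 4 higher and 5 lower of 12.

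Autophagy genes rose nearly as a block. Of 12 tested members, 11 were higher, 0 were lower and 1, Atg10, was not called, at 2.54 and 2.92 CPM in root hair and 3.57 and 3.42 in aerial seedling. The summed CPM of the list was 1992 and 2148 in root hair, 349 and 355 in root without hairs and 319 and 355 in aerial seedling. Atg8e, a ubiquitin-like protein that coats the growing autophagosome, was at 422 and 516 CPM in root hair and 49.1 and 56.3 in aerial seedling, a log2 fold change of 3.15 ± 0.23 (edgeR adjusted p = 7.27e-15). ATG3, the enzyme that joins it to lipid, was at 206 and 225 against 18.8 and 21.1, one of 3.43 ± 0.24. The smallest called rise was that of atg6, with a log2 fold change of 1.13 ± 0.25.

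Proteases and secretory chaperones had more members higher than lower. Papain-like, vacuolar and subtilisin proteases had 5 of 8 higher and 2 lower, with the cysteine protease gene ccp2 at 2592 and 2652 CPM in root hair and 254 and 268 in aerial seedling and see2b, a vacuolar processing enzyme of senescent tissue, at 686 and 639 against 78 and 111. Disulfide isomerases and chaperones of the endoplasmic reticulum had 11 of 19 higher and 4 lower, pdi6 at 386 and 335 against 50.9 and 72.7 CPM and bip1, a luminal Hsp70, at 773 and 852 against 283 and 295.

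**Figure D5:**
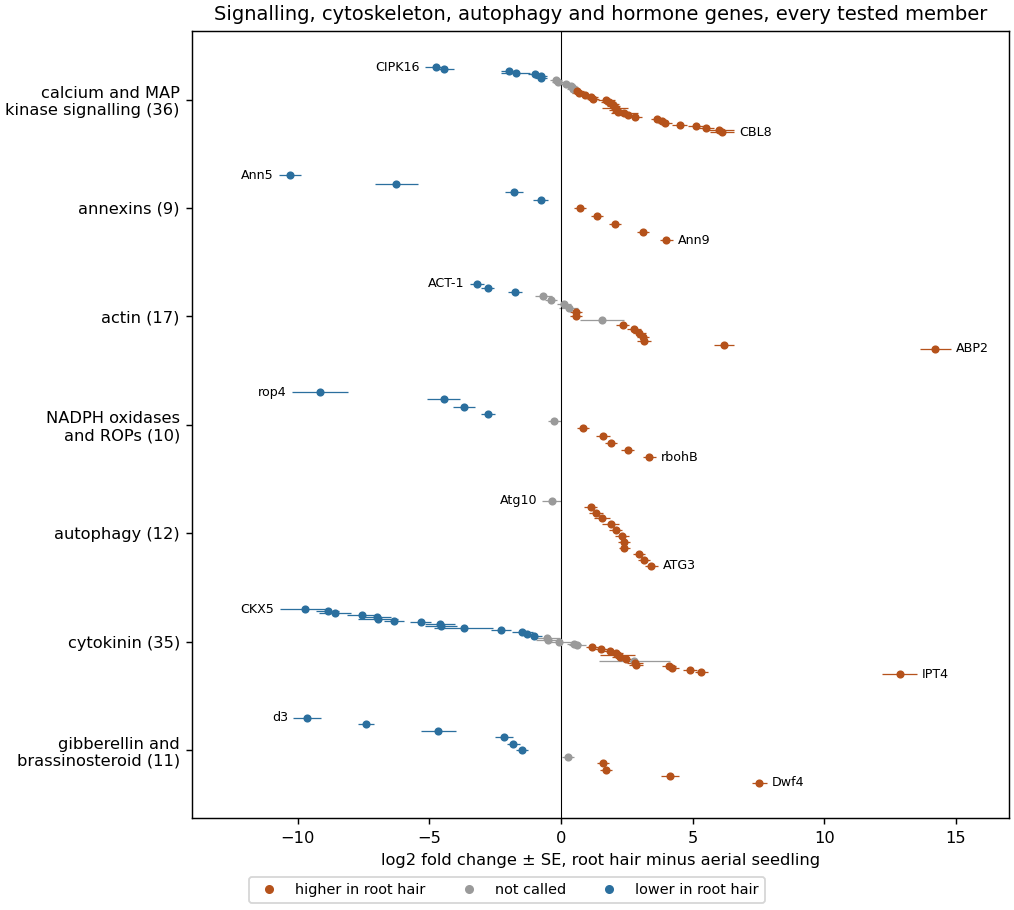
Points give the fitted log2 fold change of root hair over aerial seedling with its SE for every tested member of 7 lists, coloured by call, with the number tested in brackets and the most extreme members named. Autophagy members lie between 0 and 4 except Atg10, and cytokinin members spread over both sides from CKX5 to IPT4.

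Cytokinin genes divided by role. Of 35 tested, 14 were higher (40%) and 15 lower (42.9%), near the 34.2% and 45% of all genes tested. The response regulators, which carry the signal in the nucleus or damp it, had 9 of 12 IDs higher (4 of the 12 belong to the gene crr5) and 1 lower, with summed CPM of 1369 and 1509 in root hair and 116 and 107 in aerial seedling. RR6 was at 325 and 333 CPM in root hair and 8.58 and 7.74 in aerial seedling, a log2 fold change of 5.33 ± 0.26 (edgeR adjusted p = 3.97e-20), and RR7 and RR9 had 4.90 ± 0.26 and 4.22 ± 0.24. Cytokinin oxidases, which degrade the hormone, had 6 of 9 lower and 1 higher, with sums of 2.60 and 4.53 CPM in root hair and 125 and 89 in aerial seedling. CKX10 was at 0.113 and 0.172 CPM in root hair and 80.6 and 56.1 in aerial seedling. Receptor histidine kinases had 4 of 6 lower and 0 higher, HK1b1 at 0.621 and 0.286 against 20.4 and 16.7 CPM. These subgroups, like the other subfamilies counted here, were drawn from the lists after their values had been seen.

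Brassinosteroid and gibberellin genes had 4 of 11 higher (36.4%) and 6 lower (54.5%), beside 34.2% and 45% of all genes tested. Dwf4, a cytochrome P450 of brassinosteroid synthesis, was at 1110.1 and 1008 CPM in root hair and 6.27 and 5.16 in aerial seedling, a log2 fold change of 7.53 ± 0.29 (edgeR adjusted p = 4.29e-23), and its level was 24.5 and 22.8 CPM in root without hairs and 562 and 591 in W22 root hair. serk1, a co-receptor kinase of the SERK family, had a log2 fold change of 4.13 ± 0.34. d3, a P450 of gibberellin synthesis, was at 61.8 and 37.7 CPM in aerial seedling with 2 counts in root hair, a ratio of 891 (95% interval 246 to 7363). br2, a transporter that moves auxin in stems and by that role not a gene of these 2 hormones, was lower with a log2 fold change of -7.41 ± 0.30, and the DELLA repressor genes D8 and d9 were lower with -1.48 ± 0.22 and -1.81 ± 0.24.

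Auxin genes had 7 of 47 higher and 34 lower. All 4 tested PIN carriers were lower, with summed CPM of 0.565 and 0.859 in root hair and 293 and 223 in aerial seedling, and so were 12 of 17 auxin response factors, against 1 higher. AUX14 and AUX15 went the other way, at 1085 and 1091 (AUX14) and 35.1 and 44.1 (AUX15) CPM in root hair and 246 and 338 (AUX14) and 3.93 and 4.21 (AUX15) in aerial seedling. The ethylene list was mostly a transcription factor family: 31 of its 39 tested members were ethylene-responsive factors, 3 higher and 17 lower. Ethylene genes had 4 of 39 higher (2 without aerial seedling replicate 1), led by the receptor gene ERS14 with a log2 fold change of 2.27 ± 0.27, and 24 lower, among them EREB202, at 1.02 and 1.60 CPM in root hair and 513 and 418 in aerial seedling.

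Abscisic acid and drought genes had 14 of 53 higher and 27 lower. Type 2C phosphatases had 5 of 22 higher and 13 lower, and PYL receptors 4 of 9 higher and 3 lower. The phosphatase gene PP2C19 was at 651 and 795 CPM in root hair and 48.1 and 41.5 in aerial seedling, and the receptor gene PYL5 at 37.9 and 52.6 against 2.80 and 2.90. Jasmonate, lipoxygenase and terpene genes had 16 of 61 higher and 33 lower. Lipoxygenases had 7 of 11 lower and 2 higher, with summed CPM of 1620.5 and 1766 in root hair and 31438 and 25240.5 in aerial seedling, lox6 at 0.565 and 1.60 against 1268 and 927. Oxophytodienoate reductases had 3 of 7 higher and 3 lower, and TIFY genes, the family that holds the JAZ repressors, 6 of 21 higher and 10 lower. Among those higher were opr3, at 126 and 118 against 2.48 and 2.79 CPM, and TIFY4, at 558 and 712 against 66.9 and 53.8.

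Transcription factor families were counted against the shares of all genes tested, 34.2% higher and 45% lower; the bZIP and WRKY families lay near these shares. In the bHLH family 11 of 44 were higher and 27 lower. bHLH114 was at 234 and 291 CPM in root hair, 63.6 and 51.9 in root without hairs and 0.948 and 1.11 in aerial seedling, a log2 fold change against aerial seedling of 8.0 ± 0.32, and bHLH115 at 87.8 and 86.9, 4.49 and 3.30 against 0.542 and 0.948, one of 6.88 ± 0.34. In the bZIP family 13 of 39 were higher and 19 lower, with bZIP70 at 101 and 115 CPM in root hair and 0.677 and 0.685 in aerial seedling and bZIP113 at 0.169 and 0.286 against 191 and 171.

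WRKY factors were 6 higher and 9 lower of 18, 3 higher without root hair replicate 2, with WRKY29 at 316 and 413 CPM in root hair and 19.5 and 14.5 in aerial seedling. MYB factors were 10 higher and 27 lower of 51, 6 higher without root hair replicate 1, with MYB121 at 31.2 and 42 against 5.01 and 4.58 CPM. NAC factors were 6 higher and 16 lower of 25, with NAC22 at 7.17 and 10.5 against 1.26 and 1.42 CPM and NAC95, which had no count in root hair, at least 114-fold lower. MADS box genes were 4 higher and 9 lower of 19, MADS71 at 13.6 and 14.5 against 4.65 and 4.21 CPM. SBP factors, which time phase change in shoots, were 2 higher and 11 lower of 17.

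Homeobox and leaf patterning genes had 31 of 52 lower and 15 higher. All 8 YABBY factors, which pattern lateral organs of the shoot, were lower, and their CPM summed to 1.24 and 0.573 in root hair and 151 and 169 in aerial seedling. The homeobox genes HB34 and HB115 were higher instead, at 266 and 353 (HB34) and 328 and 464 (HB115) CPM in root hair and 2.08 and 2.74 (HB34) and 46.9 and 33 (HB115) in aerial seedling. HB34 was at 14.6 and 10.4 CPM in root without hairs and at 0.523 and 0.386 in W22 root hair, below the aerial seedling level of B73. Growth-regulating factors had 13 of 15 lower and 1 higher, a call lost under 6 of the 10 alternatives: both other scalings, DESeq2, the fit of 4 libraries, and without root hair replicate 2 or aerial seedling replicate 1.

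The cuticle was a further group on the aerial side. Of 17 cuticle, wax and lipid transfer genes 14 were lower and 3 higher. glossy2, a gene of wax synthesis, was at 2.09 and 3.15 CPM in root hair and 1116 and 856 in aerial seedling, a log2 fold change of -8.55 ± 0.32, and LTP3, a lipid transfer protein, at 1.24 and 1.09 against 635 and 713, one of -9.17 ± 0.37. The outer cell layer genes, homeobox factors of the epidermis, had 6 of 7 lower. ocl1 was at 0.282 and 0.172 CPM in root hair and 74.6 and 56.7 in aerial seedling, and ocl3 was the member called higher, at 130.2 and 117 against 104 and 68.2, a call that was lost under all alternatives but the fit without aerial seedling replicate 1.

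Photosynthesis genes had 20 of 23 members lower and 2 higher. The antenna gene cp29 was at 0.791 and 2.35 CPM in root hair and 559 and 447 in aerial seedling, and the leaf ferredoxin gene FDX1 at 0.621 and 0.802 against 344 and 371. FDX6, a ferredoxin of non-photosynthetic tissue in maize, and fnr1, a ferredoxin NADP reductase, were higher, at 277 and 369 (FDX6) and 316 and 347 (fnr1) CPM in root hair and 50.3 and 47.8 (FDX6) and 39.1 and 43.6 (fnr1) in aerial seedling, with log2 fold changes of 2.72 ± 0.23 and 3.01 ± 0.23. Rubisco and C4 cycle genes had 9 of 13 lower and 2 higher, yet their summed CPM was larger in root hair. The sums were 4280 and 4418 in root hair and 3021 and 3226 in aerial seedling. The 2 higher were led by pck2, a phosphoenolpyruvate carboxykinase, at 3167 and 3223 CPM in root hair and 234 and 169 in aerial seedling. The larger sum rested on pck2, and the sum of the other members was smaller in root hair. rca1, the activase of Rubisco, was at 0.282 and 0.745 against 174 and 184.

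Chlorophyll and carotenoid genes had 10 of 18 lower and 3 higher, and the phytoene synthases, which commit carbon to carotenoids, were opposed: PSY1 had 2 counts in root hair and 37 and 42.8 CPM in aerial seedling, while psy2 was at 13.6 and 12.4 CPM in root hair and 4.02 and 2.0 in aerial seedling. Among 18 genes of light perception, clock and flowering, 6 were higher and 10 lower. All 3 tested phytochromes, the red light receptors, were lower, with summed CPM of 1.02 and 1.32 in root hair and 94.3 and 75.1 in aerial seedling. The clock gene gigantea1 was higher, at 103 and 102 against 20.5 and 18.5 CPM.

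Benzoxazinoids are defence compounds of grasses made in steps by BX enzymes and stored as glucosides. Of 13 genes of the list 9 were lower and 2 higher. BX1 to BX6 were all lower, with summed CPM of 11.6 and 11 in root hair and 9892 and 9281 in aerial seedling, and log2 fold changes from -9.28 ± 0.33 (BX4) to -11.18 ± 0.41 (bx6). glu1, the beta-glucosidase that frees the active compounds, was higher, at 8318 and 7609.6 CPM in root hair and 1551 and 1401 in aerial seedling, a log2 fold change of 2.43 ± 0.23. bx9, a glucosyltransferase of the same pathway, was not called, at 1259.9 and 1415 CPM in root hair and 1662 and 1292 in aerial seedling. All 10 pathogenesis-related and chitinase genes were lower, and wip1, a wound-induced proteinase inhibitor, was at 0.678 and 0.687 CPM in root hair and 1085 and 1327 in aerial seedling. Anthocyanin genes had 9 of 13 lower and 2 higher (1 under 7 of the 10 alternatives, among them the fits without root hair replicate 1, root hair replicate 2 or aerial seedling replicate 1, and 3 without aerial seedling replicate 2), c2, a chalcone synthase, at 1.19 and 1.66 against 135 and 106 CPM.

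Glutathione transferases, which detoxify foreign and oxidised compounds, were 11 higher and 18 lower of 32, a higher share close to the background and a lower share above it. gst2 was at 4546 and 5182 CPM in root hair and 478 and 401 in aerial seedling, gst42 at 925 and 1172 against 84.7 and 74, and gst6 at 0.734 and 1.03 against 249 and 203. Low oxygen genes had 7 of 12 higher and 4 lower. The haemoglobin gene Hb2 was at 148 and 221 CPM in root hair and 1.13 and 1.58 in aerial seedling, a log2 fold change of 7.10 ± 0.35, and a second haemoglobin gene, GLB1, was at 226 and 320.2 against 16.1 and 20.1, one of 3.92 ± 0.26. In contrast pdc3, a pyruvate decarboxylase, was at 21.3 and 20.2 against 1089.6 and 1128, one of -5.74 ± 0.26. Glycolysis genes had 4 of 12 higher, 2 lower (1 without root hair replicate 2) and 6 not called, with the enolase gene eno1 at 3163 and 3198 against 423 and 618 CPM.

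Most named genes of cell division and of ribosomes were lower. All 10 core histones were lower, with summed CPM of 59.5 and 78.5 in root hair and 1319.6 and 1278 in aerial seedling. DNA replication genes had 10 of 14 lower and 1 higher, orc4, of the origin recognition complex, with a log2 fold change of 1.27 ± 0.32, and pcna2, the sliding clamp of the polymerase, one of -7.32 ± 0.40. Cyclins and their kinases had 11 of 14 lower and 3 higher, with summed CPM of 157 and 162 in root hair and 121 and 137 in aerial seedling, larger in root hair. Among the lower was the D cyclin gene cycD2, at 1.81 and 1.66 against 50.6 and 56.6 CPM.

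Ribosomal protein genes had 29 of 36 lower and 2 higher, with a median log2 fold change of -1.74. Translation factors had 3 of 13 higher and 5 lower, and tif5A, initiation factor 5A, was at 1768 and 1925 CPM in root hair and 256 and 471 in aerial seedling. Heat shock genes were 11 higher and 12 lower of 29, with hsp22 at 327 and 377 against 33.9 and 39.8 CPM and HSP90-2 at 185 and 164 against 579 and 692.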

How the data were processed

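Messenger RNA was sequenced from B73 root hair, root and aerial seedling and W22 wild type root hair, with 2 libraries each; 6 other libraries were not used here. Each deposited file gives raw read counts by gene ID. The tools were DESeq, HTSeq and TopHat2, per the submitters' processing notes; the sources used here do not give versions, genome build, strand setting or what each tool did, so overlapping, antisense and near-identical genes may hold reads of each other. Per the labels' protocols the RNA came from TRIzol extraction and a NEBNext mRNA kit made the libraries, while a Qiagen kit is named in the series design. HTSeq's summary entries (3.58% to 6.71% of reads outside genes, 1.91% to 2.58% ambiguous in the 6 B73 libraries) stayed out of library sizes and tests. Totals in the B73 libraries ran from 14775951 to 27788359 counts.

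The test was that of edgeR 4.0.16 (R 4.3.3): filterByExpr (minimum count 10, minimum total 15), TMM scaling, and the two-sided quasi-likelihood test (glmQLFit, glmQLFTest) of group means over the 6 B73 libraries in 1 fit, which share the estimate of the spread, with the contrast root hair minus aerial seedling and Benjamini-Hochberg adjustment over the 25551 genes tested. The SE is the size of a log2 fold change over the root of its F statistic. CPM values use the TMM factors, and those of W22 were scaled with all 8 libraries and set on the scale of the B73 values. A fold against 0 counts is a bound against 3 counts over the group, and with 1 to 3 counts the ratio has an exact 95% interval; both cover counting error only. The procedure was tested on simulated data.

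Names were read from RefSeq's genes for Zm-B73-REFERENCE-NAM-5.0, from their symbols and synonyms without clone and marker names. This table matched 18997 IDs, 18476 once and 521 more than once, and named 2798. Since the files' build is not given, no coordinates or sequences are printed. Lists were defined by patterns of names; genes whose other names pointed to another family were taken out after values had been seen. The comparison, lists and subfamilies were chosen with earlier results of these data known, and so support nothing independently. Named genes were the 12 largest called rises and falls with a mean of at least 20 CPM in the higher group, the 8 highest by mean CPM in each tissue, and up to 3 called rises, up to 3 falls and the uncalled member nearest 0 of each list, of which the text gives a part; further members were named after their values were seen. Alternatives were DESeq2 1.42.0 and its size factors, upper-quartile scaling, no filter, a fit of 4 libraries, a replicate block, a test against a 2-fold change (glmTreat), and each library left out.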

Additional observations from a re-analysis of the deposited data

How the results depend on the processing

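The numbers of genes called kept within 1.5 times of their values under all 10 alternatives, from 8181 to 8922 higher and from 10905 to 11968 lower. With each of the 4 libraries left out in turn, the fits gave 8181 to 8692 higher and 10905 to 11179 lower, and 7229 to 7491 higher and 10369 to 10664 lower by 2-fold or more. DESeq2 called 8292 higher and 11046 lower, all 8292 and 11036 of them also called by edgeR in the same direction. A test against a 2-fold change (glmTreat) left 5871 higher and 9637 lower. Upper-quartile scaling shifted the median change over all genes from -0.40 to -0.51 (log2), with 8292 higher and 11819 lower. Higher genes made up 41.2% to 43.7% of calls in the main fit and the 10 alternatives other than the test against a 2-fold change. Labels give both tissues replicates 1 and 2, but deviations from the group means of same-numbered libraries had a correlation across genes of -0.0098 between root hair and aerial seedling, so the numbers were not taken to pair the samples. With the replicate block 8549 genes were higher and 11297 lower, 7293 and 10589 by 2-fold or more. Of the genes named, bx9, not called, changed sign without aerial seedling replicate 1, its log2 fold change running from -0.323 to 0.0771 over the fits that left out 1 library, and ocl3 kept its call only without aerial seedling replicate 1; the cause was not tested. The floor of 3 counts limits folds against 0 to the bounds given, and 2 libraries a group limit small differences, such as those of sat3, MUB3 and ocl3.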

Other observations

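Some genes of the RefSeq table hold more than 1 of the counted IDs, and these did not always move together. Of 112 such named genes, 79 had at least 2 IDs tested; all tested IDs of a gene shared 1 call in 37 of them, and in 18 at least 1 ID was higher and another lower in root hair. The IDs of AR2 mirrored each other: AR2 (GRMZM2G059306) was at 9.43 and 12.4 CPM in root hair and 0 and 0.0527 in aerial seedling, and GRMZM2G059314 at 0.0565 and 0 against 9.21 and 9.80. For dcl4, a dicer-like gene of small RNA synthesis, GRMZM2G160473 was at 8.87 and 9.85 CPM in root hair and 0.993 and 0.421 in aerial seedling, a log2 fold change of 3.69 ± 0.39, and GRMZM2G050882 had one of -3.26 ± 0.78. The glutamine synthetase gene gln1 (GRMZM2G098290 and GRMZM5G885867) had 1.80 ± 0.24 and -3.45 ± 0.44, and the profilin gene prf5 (GRMZM5G877388 and GRMZM2G028594) 2.98 ± 0.25 and -1.74 ± 0.27. Whether these IDs are parts of 1 transcript, separate transcripts or close copies was not tested, and a list counts each ID.

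Levels in W22 root hair were set beside B73 for the genes of the report without a test, since line and library set cannot be told apart. Of the 98 genes of the text called higher in B73 root hair, 91 had both W22 root hair values above both B73 aerial seedling values. Another 3 overlapped them and 4 lay below. Of the 74 called lower, 70 lay below, 1 overlapped and 3 lay above. Genes of the text were named largely for their change in B73, and the share over all called genes was not counted. The counts are therefore no measure of how far the lines agree. The 4 below were HB34, the haemoglobin gene GLB1 at 14.4 and 13.3 CPM in W22 root hair against 16.1 and 20.1 in B73 aerial seedling, pma1 at 21.7 and 12.6 against 39.1 and 41.1, and bip1 at 167 and 191 against 283 and 295. The 3 above were CBL10 at 28.7 and 28 against 10.1 and 11.5, CIPK16 at 12.9 and 11.1 against 11.1 and 7.53, and rbohD at 214 and 218 against 126 and 85.9. pht9 was at 2122 and 2090.4 CPM in W22 and 187 and 228 in B73 root hair, and PER2 at 29663 and 31254 against 3364 and 3351. TIP2-2 was at 4036 and 3878 against 1072 and 1429.6, and NAR2.1 at 402 and 379.8 against 1079 and 1386, the one of these 4 that was lower in W22. The vacuolar invertase gene IVR1 was at 1021 and 1078 against 1329 and 1405, and bHLH114 at 23.3 and 23 against 234 and 291.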
